A study of Homo sapiens and Mus musculus with 19 samples.

Results

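The Janus kinase JAK2, the transcription factors STAT5A and STAT5B that it phosphorylates, and 7 genes that STAT5 is known to switch on were followed in chromatin-associated RNA (caRNA), the RNA that stays with the chromatin pellet when nuclei are lysed and that is rich in RNA still being made. The 10 genes were taken by name from the 58721 genes counted in each library, and all 10 were found once by their Ensembl identifiers. They are the feedback inhibitors SOCS1, SOCS2, SOCS3 and CISH, the transcription factors STAT5A and STAT5B, the kinase JAK2, and the target genes PIM1, BCL2L1 and OSM. The values come from 12 libraries of K562, a human chronic myeloid leukaemia cell line, out of 19 libraries in the series.

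The cells were either TET2 WT or TET2 KO (TET2-/-), and carried either a control short hairpin RNA (shControl) or one against MBD6 (shMBD6), which gave 4 groups of 3 libraries. TET2 oxidizes methylcytosine in DNA and RNA, and MBD6 is a methyl-CpG-binding-domain protein, so the 4 groups let the effect of MBD6 knockdown be set beside that of TET2 loss. The labels give hairpins and a puromycin medium, and the methods of the study describe lentiviral transduction for such K562 lines, but its sample table names siNC and siMBD6 for the K562 caRNA samples. The labels were followed here, and which reagent was used was not settled. The study received a TET2 KO and WT pair of K562 from another laboratory, and also lists WT K562 from the American Type Culture Collection. Which WT line gave the caRNA is not stated, and the number of clones is not given in the sources used here. Genotype therefore cannot be told apart from clone or, possibly, from the source of the line. The study describes its genome-wide data as coming from biological replicates, but neither it nor the labels say whether the 3 libraries of a group came from separate cultures, so the p-values measure the spread between these libraries, which may be in part technical.

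In cytokine-stimulated blood cells, receptors such as the erythropoietin receptor bring JAK2 molecules together, JAK2 phosphorylates STAT5, and STAT5 dimers enter the nucleus and bind DNA at the palindrome TTCNNNGAA. SOCS proteins and CISH are made in response and bind to the receptor or the kinase, which closes a negative feedback loop. K562 cells carry the BCR-ABL1 fusion kinase, which is known to keep STAT5 phosphorylated without a cytokine. The measurements here are RNA levels and give no view of phosphorylation or protein.

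The CISH promoter is shown because CISH was the only one of the 8 members with a RefSeq promoter window that held TTCNNNGAA, the motif that STAT5 dimers bind. The 250 bases before its start site are given 5′ to 3′ on the minus strand, at chr3:50611775-50612024 of GRCh38.p14, with the 4 matches in capitals:
CISH promoter: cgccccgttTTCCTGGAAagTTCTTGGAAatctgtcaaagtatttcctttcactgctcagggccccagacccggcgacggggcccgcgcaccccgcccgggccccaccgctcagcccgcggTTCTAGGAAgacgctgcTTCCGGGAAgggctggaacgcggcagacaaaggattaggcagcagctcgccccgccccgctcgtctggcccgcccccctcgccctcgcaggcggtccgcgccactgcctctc

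The matches TTCCTGGAA, TTCTTGGAA, TTCTAGGAA and TTCCGGGAA began 241, 230, 129 and 112 bases before the start. The motif is its own reverse complement, so both strands were covered by 1 search. Of 35116 RefSeq promoter windows, each 300 bases long, 7.66% held at least 1 match. Counted by gene, as for the members, 9.38% of 27305 genes had a window with a match, beside 1 of the 8 members. SOCS2 and OSM had no window in the table. The windows of PIM1, JAK2, SOCS1, STAT5A, STAT5B, SOCS3 and BCL2L1 held no match, and neither SOCS3 window was placed at the SOCS3 start of the gene annotation used here (the start sites were 410 and 848 bases away), nor was that of STAT5B, 12242 bases away.

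The libraries held 52158403 to 102070223 counts on genes. No spike-in row was found in the count tables, so every value is a share of its library and says nothing of how much caRNA the cells held. Values are given as CPM, which are counts relative to library size, after TMM (trimmed mean of M values) scaling, which sets the libraries to a common reference. The K562 genes TFRC, LMO2, TAL1 and GATA1 were present in every group, with GATA1 lowest at 34.9 CPM in TET2 KO shControl. HBG2 and HBE1 were listed at 0 in all 12 libraries and HBZ had at most 19 counts. HBG2 and HBE1 span 252 and 237 kb in the annotation used here, and records ambiguous between genes were not counted for any gene. Whether their 0 comes from the counting was not tested, and it is not read as absence of the RNA. The 12 erythroid markers listed for K562 summed to 1086 to 1114 CPM with shControl and 666 to 679 with shMBD6 in TET2 WT, and to 528 to 537 with shControl and 773 to 792 as labelled shMBD6 in TET2 KO. Markers of lymphocytes summed to 1.58 to 4.80 CPM, of monocytes to 24.7 to 44.3, of megakaryocytes to 28.6 to 58.4 and of fibroblasts or epithelium to 5.61 to 11.6. At least 1 CPM in a group mean was reached by 8 or 9 of the 12 erythroid markers, 1 of 8 lymphocyte, 3 or 4 of 8 monocyte, 1 or 2 of 6 megakaryocyte and 1 or 3 of 6 fibroblast or epithelial markers. CD79B, CTSG, PF4 and GP9 had no count in 3 of the 4 groups, and for each of them the group with counts was TET2 WT shMBD6. The part of these shifts in the results was not tested.

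The targeted genes were checked first. MBD6 RNA was at 41.5 ± 2.55 CPM (SD, n = 3) in TET2 WT shControl and fell to 28.0 ± 2.71 in TET2 WT shMBD6, a log2 change of -0.57 (adjusted p = 1.83e-07). In TET2 KO it was at 30.3 ± 0.75 CPM in shControl and at 34.4 ± 3.86 in the libraries labelled shMBD6 (log2 change 0.19, 95% interval 0.03 to 0.34, adjusted p = 0.0574). MBD6 RNA therefore goes against the label in TET2 KO, and those libraries are called "labelled shMBD6" throughout. Every direction drawn from them below refers to the label. In bulk libraries such as these, less RNA per cell and fewer cells that make it cannot be told apart. TET2 RNA was at 121 ± 2.59 CPM in TET2 WT shControl and 129 ± 2.23 in TET2 KO shControl (log2 change 0.09, adjusted p = 0.0735), but at 94.8 ± 5.28 where TET2 KO was labelled shMBD6. A disrupted gene can still be transcribed, so this level checks neither the genotype nor the label. Adjusted p-values here and below are from the quasi-likelihood test of edgeR with Benjamini-Hochberg adjustment over the 26023 genes tested, and a gene was called where it was below 0.05.

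All 10 members passed the filter on low counts. OSM did so only through its TET2 WT libraries, where it was higher, and so had to differ between the genotypes, and it is left out of the counts that follow. Read against all genes, calls were common in these data. In the genotype comparison averaged over both shRNA labels, 7 of the other 9 members were called (higher in TET2 KO for 3, lower for 4), beside 52.7% of all genes tested. Between TET2 KO and TET2 WT with shControl it was 6 of 9 (4 higher, 2 lower) against 45.8% of all genes, and between the 2 groups labelled shMBD6 it was 6 of 9 (2 higher, 4 lower) against 58.6%. For shMBD6 over shControl it was 7 of 9 (3 higher, 4 lower) in TET2 WT against 42.5%, and 7 of 9 (3 higher, 4 lower) in TET2 KO as labelled against 36.4%. The shMBD6 effect differed between the genotypes, by the interaction term, for 8 of 9 members against 49.4%. The median log2 change of the 9 members lay between -0.21 and 0.09 in the 6 comparisons, beside medians of all genes tested of -0.19 to 0.10. The 6 comparisons share libraries, so their counts are not independent. Groups without overlapping libraries were also common. Of all genes tested, 56.1% had none between the genotypes with shControl and 64% between the genotypes labelled shMBD6. Between shMBD6 and shControl it was 57.7% in TET2 WT and 43.8% as labelled in TET2 KO. The share of all genes with 1 group apart from all other libraries was not counted. When libraries were scaled to their total gene counts the members called were 1 higher and 5 lower for the averaged genotype comparison, 3 and 3 with shControl, 1 and 6 among the groups labelled shMBD6, 3 and 1 for shMBD6 in TET2 WT, and 3 and 3 as labelled in TET2 KO.

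**Figure D1:**
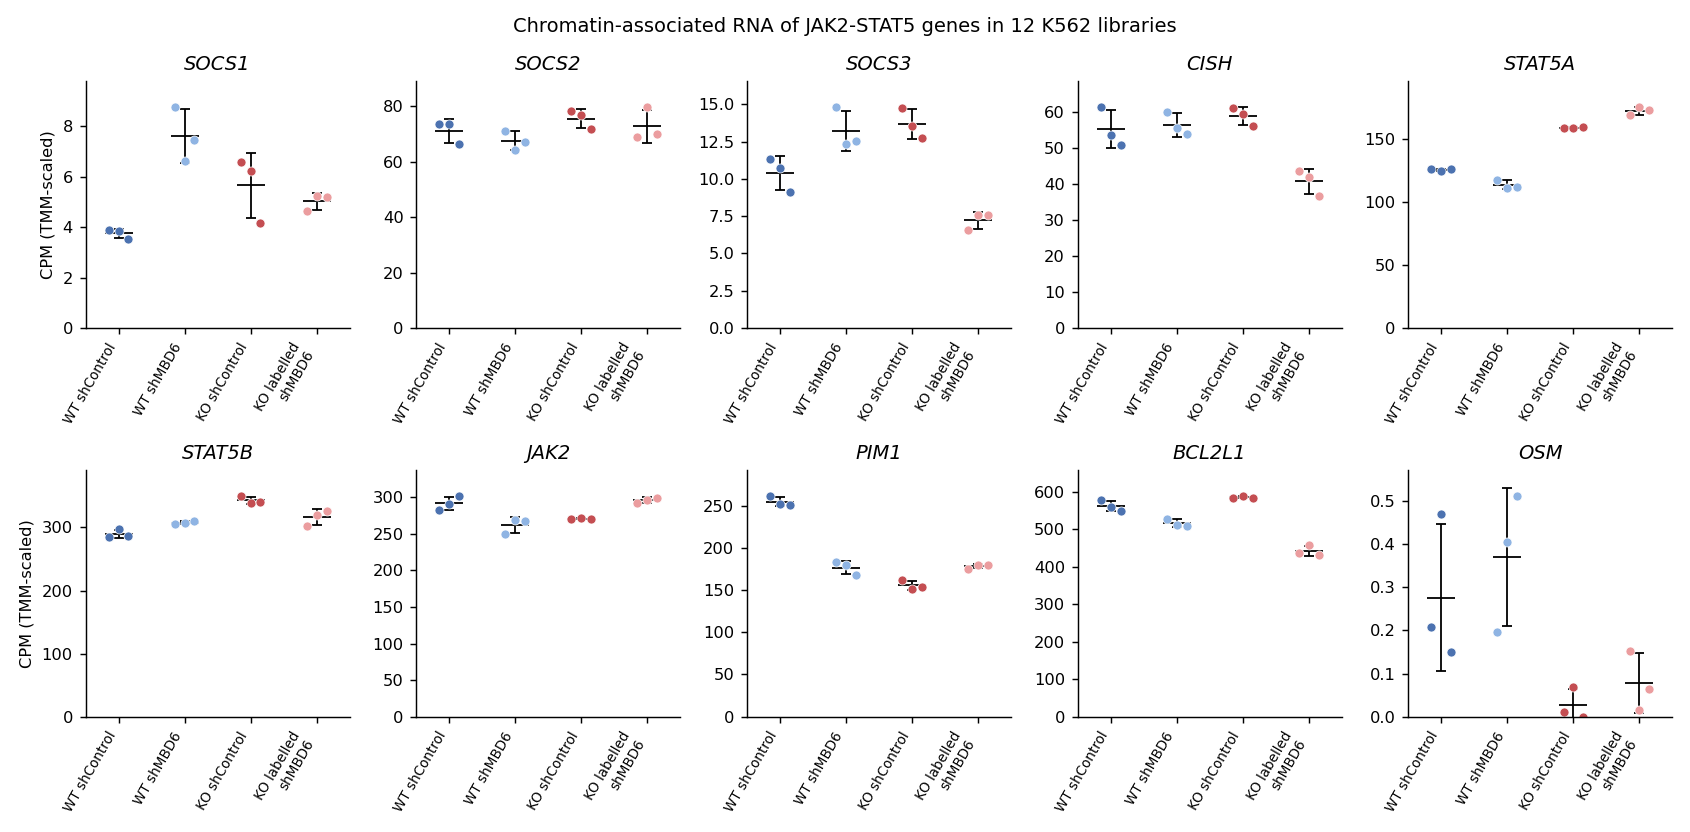
CPM after TMM scaling (y axes, from 0) of the 10 genes in the 4 groups (x axes). Each point is a library, the horizontal line is the group mean and the bar is the SD over 3 libraries. SOCS3, CISH and BCL2L1 were lowest in TET2 KO labelled shMBD6, PIM1 was highest in TET2 WT shControl, and STAT5A was higher in every TET2 KO library than in any TET2 WT library.

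Between members, levels were compared only per length. In TET2 WT shControl, PIM1 had 48.3 ± 1.08 CPM per kb of gene span (SD, n = 3), CISH 10.5 ± 1.01, BCL2L1 9.44 ± 0.235, SOCS2 5.21 ± 0.311, STAT5A 5.15 ± 0.0405, STAT5B 3.24 ± 0.0755, SOCS3 3.15 ± 0.353, SOCS1 2.10 ± 0.104, JAK2 2.01 ± 0.0637 and OSM 0.0685 ± 0.0425. The libraries of CISH and BCL2L1, of SOCS2 and STAT5A, of STAT5B and SOCS3, and of SOCS1 and JAK2 overlapped, so these neighbours in the order did not differ beyond their spread. The order depends on which length is used, because caRNA holds intron RNA and the counted feature is not given in the sources used here. Per kb of exon, BCL2L1 was first at 134 CPM and JAK2, whose exons make up 5.43% of its span, came after PIM1 at 36.9. PIM1 was first or second and OSM was last by either length in all 4 groups. For scale, the median of 415 olfactory receptor genes was 0 CPM per kb of span in TET2 WT shControl, and 95% of them were below 0.0559. Their mean was 0.0809, so some of them were well above that level and they are no strict zero. The median of these genes was 0.00614 in TET2 WT shMBD6, the only group where it was above 0.

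The first group of genes is the feedback inhibitors. SOCS1, which binds and blocks JAK kinases through its kinase inhibitory region, has a gene at chr16:11254417-11256204 on the minus strand. It had 3.89, 3.84 and 3.54 CPM with shControl and 8.75, 6.63 and 7.47 with shMBD6 in TET2 WT, and 6.58, 6.24 and 4.18 with shControl and 4.63, 5.25 and 5.19 as labelled shMBD6 in TET2 KO. All libraries of the other 3 groups were above the 3 TET2 WT shControl libraries, and the TET2 KO shControl libraries were the most spread. SOCS1 was 2.03-fold higher with shMBD6 than with shControl in TET2 WT (log2 change 1.02 ± 0.17, SE, adjusted p = 8.51e-06) and 1.51-fold higher in TET2 KO than in TET2 WT with shControl (log2 change 0.59 ± 0.17, adjusted p = 0.0052). The second call rested on TET2 KO shControl replicate 1, without which the log2 change was 0.47 (adjusted p = 0.0524, and 0.000584 to 0.0524 over all alternatives). Among the libraries labelled shMBD6, SOCS1 was lower in TET2 KO than in TET2 WT (log2 change -0.60, adjusted p = 0.00323). In TET2 KO the labelled shMBD6 effect was -0.17 on the log2 scale (95% interval -0.52 to 0.18, adjusted p = 0.478). Averaged over both shRNA labels, the genotype difference was -0.01 on the log2 scale (95% interval -0.25 to 0.24, adjusted p = 0.973).

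SOCS1 lies within RMI2, which is on the opposite strand over all of its 1.79 kb. The libraries were stranded but the strand setting of the counting is not given in the sources used here, so reads of the pair may not be cleanly separated. RMI2 was at 25.9 ± 1.70 CPM (SD, n = 3) with shControl and 28.3 ± 0.882 with shMBD6 in TET2 WT, and at 33.4 ± 1.04 with shControl and 30.4 ± 2.29 as labelled shMBD6 in TET2 KO. Its log2 change with shMBD6 in TET2 WT was 0.13 (adjusted p = 0.146), beside 1.02 for SOCS1. In TET2 KO with shControl RMI2 was called higher, as SOCS1 was (log2 change 0.37, adjusted p = 5.39e-05, beside 0.59 for SOCS1). Its interaction was also called in the direction of that of SOCS1 (-0.27, adjusted p = 0.0278, beside -1.19). How far reads of RMI2 enter the SOCS1 values was not tested.

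SOCS3, which blocks JAK2 at the receptors that use gp130 and at others, is at chr17:78356778-78360077 on the minus strand. The TET2 WT libraries were at 11.4, 10.7 and 9.10 CPM with shControl and 14.8, 12.3 and 12.5 with shMBD6, and the TET2 KO libraries at 14.7, 13.5 and 12.8 with shControl and 6.56, 7.54 and 7.54 as labelled shMBD6. The 3 libraries of the last group were below the other 9, and those of TET2 WT shMBD6 and TET2 KO shControl were both above TET2 WT shControl. In TET2 KO, SOCS3 was 1.89-fold lower in the libraries labelled shMBD6 than in shControl (log2 change -0.92 ± 0.12, SE, adjusted p = 1.05e-07), whereas in TET2 WT it was 1.27-fold higher with shMBD6 (log2 change 0.35 ± 0.12, adjusted p = 0.0146). The interaction, the TET2 KO effect minus the TET2 WT effect, was -1.27 ± 0.17 on the log2 scale (adjusted p = 7.65e-08). SOCS3 was higher in TET2 KO than in TET2 WT with shControl (log2 change 0.40, adjusted p = 0.00519) and lower among the groups labelled shMBD6 (log2 change -0.87, adjusted p = 1.5e-07).

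The 2 rises of SOCS3 over TET2 WT shControl were near the threshold. Without TET2 WT shControl replicate 3 their log2 changes were 0.31 for TET2 KO (adjusted p = 0.0538) and 0.26 for shMBD6 in TET2 WT (adjusted p = 0.12). Scaling to total gene counts gave 0.22 for TET2 KO (adjusted p = 0.121). Without TET2 WT shMBD6 replicate 1 the rise in TET2 WT was 0.26 (adjusted p = 0.126), and the averaged genotype difference, -0.24 with all libraries (adjusted p = 0.0158), was -0.19 (adjusted p = 0.0681). Over all alternatives the adjusted p ranged from 0.00207 to 0.121 for TET2 KO with shControl, from 0.000468 to 0.126 for shMBD6 in TET2 WT and from 0.000156 to 0.0681 for the averaged difference.

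CISH, an SH2 protein that competes with STAT5 for receptor docking sites and a classical STAT5 target, is at chr3:50606489-50611774 on the minus strand, just downstream of the promoter printed above. CISH was at 61.3, 53.7 and 50.9 CPM with shControl and 60.1, 55.4 and 53.8 with shMBD6 in TET2 WT, and at 61.0, 59.4 and 56.0 with shControl and 43.6, 41.8 and 36.8 as labelled shMBD6 in TET2 KO. The first 3 groups overlapped and the last was below all of them. CISH was 1.45-fold lower in the libraries labelled shMBD6 than in shControl in TET2 KO (log2 change -0.53 ± 0.07, SE, adjusted p = 5.45e-08) and 1.39-fold lower than in TET2 WT shMBD6 (log2 change -0.47 ± 0.07, adjusted p = 2.69e-07). With shMBD6 in TET2 WT the log2 change was 0.03 (95% interval -0.10 to 0.16, adjusted p = 0.733) and with TET2 KO in shControl it was 0.09 (95% interval -0.04 to 0.22, adjusted p = 0.273). The second value was 0.17 and called without TET2 WT shControl replicate 1 (adjusted p = 0.0406), and -0.09 under scaling to total gene counts (adjusted p = 0.306). The first was 0.14 and called without a filter on low counts (adjusted p = 0.0498). MAPKAPK3, which shares 255 bases with CISH on the opposite strand, had a log2 change of 0.06 (adjusted p = 0.61) between the TET2 KO groups.

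SOCS2, which dampens growth hormone receptor signalling, is at chr12:93569814-93583487 on the plus strand. Its 12 libraries lay between 64.4 and 79.6 CPM and the groups overlapped in every comparison. None of the 4 pairwise comparisons was called, and their log2 changes lay between -0.07 and 0.11, with 95% intervals inside -0.18 to 0.22. Among the groups labelled shMBD6 the value of 0.11 (adjusted p = 0.0938) was called without TET2 WT shMBD6 replicate 1 (0.15, adjusted p = 0.0401), TET2 KO labelled shMBD6 replicate 1 (0.15, adjusted p = 0.0201) or TET2 KO labelled shMBD6 replicate 3 (0.14, adjusted p = 0.0485). The averaged genotype difference was called at 0.10 on the log2 scale (adjusted p = 0.0343), but was -0.07 when libraries were scaled to their total gene counts, and its call was lost without each of 6 libraries in turn (adjusted p of 0.0608 to 0.146), namely TET2 WT shControl replicate 3, TET2 WT shMBD6 replicates 2 and 3, TET2 KO shControl replicates 1 and 2, and TET2 KO labelled shMBD6 replicate 2. The antisense transcript SOCS2-AS1, at 52.7 to 65.0 CPM in the group means, overlaps 1955 bases of SOCS2.

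STAT5A and STAT5B, near-identical factors that bind the same motif, lie head to head on chromosome 17, STAT5A at 42287547-42311943 on the plus strand and STAT5B at 42199176-42288633 on the minus strand, with 1087 bases in common. STAT5A had 126, 124 and 126 CPM with shControl and 118, 111 and 112 with shMBD6 in TET2 WT, and 159, 159 and 159.5 with shControl and 169, 175 and 173 as labelled shMBD6 in TET2 KO. It was the only member whose 6 TET2 KO libraries were all above its 6 TET2 WT libraries, a separation that 17.8% of all genes tested had in one direction or the other. The averaged genotype difference was 0.47 ± 0.02 on the log2 scale (SE, adjusted p = 7.72e-18), made up of 0.34 with shControl (adjusted p = 1.89e-10) and 0.60 among the groups labelled shMBD6 (adjusted p = 2.07e-16).

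STAT5B differed less. The TET2 WT libraries ranged from 286 to 297 CPM with shControl and 305 to 311 with shMBD6, and the TET2 KO libraries from 339.5 to 349.6 with shControl and 302 to 327 as labelled shMBD6. It was higher in TET2 KO with shControl (log2 change 0.25 ± 0.03, SE, adjusted p = 2.48e-08). Among the groups labelled shMBD6 the log2 change was 0.04 (95% interval -0.02 to 0.10, adjusted p = 0.27), a value whose direction and call depended on the setting. STAT5B was called lower there with the size factors of DESeq2 (-0.08, adjusted p = 0.022), total gene counts (-0.11, adjusted p = 0.00137), a filter of at least 1 CPM in 3 libraries (-0.07, adjusted p = 0.0314) and DESeq2 (-0.08, adjusted p = 0.0093), but higher without TET2 KO labelled shMBD6 replicate 1 (0.08, adjusted p = 0.0304). With shMBD6 in TET2 WT it rose by 0.09 on the log2 scale (adjusted p = 0.0185), a call lost without each of 4 libraries in turn, TET2 WT shControl replicates 1 and 3 and TET2 WT shMBD6 replicates 2 and 3 (log2 changes of 0.07 to 0.08, adjusted p of 0.0585 to 0.11). In TET2 KO it fell by 0.12 in the libraries labelled shMBD6 (adjusted p = 0.002), a change of 0.01 under scaling to total gene counts. The log2 change was -0.07 and not called without a filter on low counts (adjusted p = 0.168). With only the libraries compared it was also -0.07 and not called (adjusted p = 0.0625).

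The ratio of STAT5A to STAT5B counts within a library depends on no scaling between libraries. It was 0.434 ± 0.0133 (SD, n = 3) with shControl and 0.370 ± 0.0136 with shMBD6 in TET2 WT, and 0.463 ± 0.00822 with shControl and 0.545 ± 0.0155 as labelled shMBD6 in TET2 KO. The ranges of the 4 groups did not overlap, and the group order was the same as that of STAT5A itself. The shMBD6 effect on STAT5A was -0.14 on the log2 scale in TET2 WT (adjusted p = 0.00074) and 0.12 as labelled in TET2 KO (adjusted p = 0.00616), and the interaction was 0.26 ± 0.05 (adjusted p = 2.57e-05). For STAT5B the interaction had the other sign, -0.21 ± 0.04 (adjusted p = 0.000131).

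**Figure D2:**
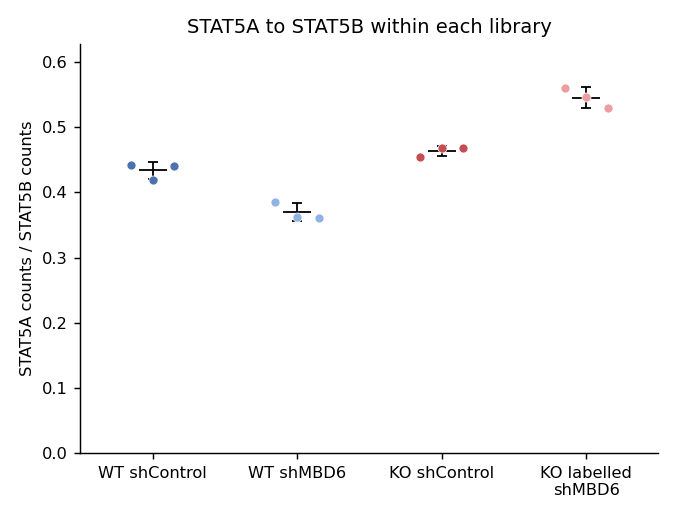
STAT5A counts divided by STAT5B counts (y axis, from 0) in each library of the 4 groups (x axis). Points are libraries, lines are group means and bars are the SD over 3 libraries. The ratio lay between 0.361 and 0.385 in TET2 WT shMBD6, the lowest group, and between 0.529 and 0.560 in TET2 KO labelled shMBD6, the highest.

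JAK2, the kinase that sits on the erythropoietin and growth hormone receptors, is at chr9:4984390-5129948 on the plus strand. It ranged from 283 to 302 CPM with shControl and 249 to 269 with shMBD6 in TET2 WT, and from 270.1 to 271 with shControl and 292 to 299.7 as labelled shMBD6 in TET2 KO. TET2 WT shControl and TET2 KO labelled shMBD6 overlapped and both lay above the other groups. Between TET2 KO and TET2 WT with shControl JAK2 was lower by a log2 change of -0.11 (adjusted p = 0.00454), which without TET2 WT shControl replicate 3 was -0.09 (adjusted p = 0.0517, and 4.01e-10 to 0.0517 over all alternatives). Among the groups labelled shMBD6 it was higher by 0.18 (adjusted p = 1.34e-05), or 0.06 with the size factors of DESeq2 (adjusted p = 0.137, and 2.83e-07 to 0.418 over all alternatives). It was lower with shMBD6 in TET2 WT (log2 change -0.16, adjusted p = 0.000104) and higher as labelled in TET2 KO (log2 change 0.13, adjusted p = 0.00116). The averaged genotype difference was 0.03 (95% interval -0.01 to 0.08, adjusted p = 0.204), but under scaling to total gene counts JAK2 was called lower in TET2 KO (-0.13, adjusted p = 2.59e-06). On the same strand 11 short pseudogenes cover 8.35% of the JAK2 span, and all were listed at 0 in every library. Records ambiguous between overlapping genes were not counted, so this 0 does not show that no reads fell there.

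The remaining members are targets. PIM1, a serine/threonine kinase that promotes survival, is at chr6:37170152-37175428 on the plus strand and showed the largest genotype difference with shControl apart from OSM. PIM1 had 262, 253 and 251 CPM with shControl and 183, 179 and 168 with shMBD6 in TET2 WT, and 162, 151 and 154 with shControl and 176, 180.1 and 180.3 as labelled shMBD6 in TET2 KO. The TET2 WT shControl libraries were above the other 9, which lay within 151 to 183 CPM. PIM1 was 1.64-fold lower in TET2 KO than in TET2 WT with shControl (log2 change -0.71 ± 0.03, SE, adjusted p = 3.68e-18) and 1.44-fold lower with shMBD6 than with shControl in TET2 WT (log2 change -0.53 ± 0.03, adjusted p = 2.55e-14). In TET2 KO it was higher in the libraries labelled shMBD6 (log2 change 0.20 ± 0.03, adjusted p = 2.07e-05), and the interaction was 0.73 ± 0.05 (adjusted p = 2.89e-14). Among the groups labelled shMBD6 the genotypes differed by 0.01 on the log2 scale (95% interval -0.06 to 0.09, adjusted p = 0.74). There PIM1 was called lower in TET2 KO with the size factors of DESeq2 (-0.11, adjusted p = 0.0102), total gene counts (-0.13, adjusted p = 0.00159), the filter of at least 1 CPM in 3 libraries (-0.09, adjusted p = 0.0169) and DESeq2 (-0.11, adjusted p = 0.00587). The averaged genotype difference was -0.35 (adjusted p = 5.9e-14). MBD6 itself was also highest in TET2 WT shControl, as given above, but it was lowest in TET2 WT shMBD6. PIM1 was lowest in TET2 KO shControl, as were the summed erythroid markers, which were also highest in TET2 WT shControl. The largest part of that sum was TFRC, at 578 CPM in TET2 WT shControl and 318 in TET2 KO shControl. TFRC is also on the list of other targets used below. No link between these was tested.

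BCL2L1, which encodes the anti-apoptotic protein BCL-XL and is needed for erythroid survival, is at chr20:31664452-31723989 on the minus strand. BCL2L1 was at 577, 559 and 549 CPM with shControl and 528, 512 and 509.5 with shMBD6 in TET2 WT, and at 584, 588 and 584 with shControl and 438, 458 and 431 as labelled shMBD6 in TET2 KO. No library of the last group reached those of any other. In TET2 KO it was 1.32-fold lower as labelled shMBD6 than with shControl (log2 change -0.40 ± 0.03, SE, adjusted p = 3.13e-14) and the genotypes with that label differed by -0.22 (adjusted p = 1.28e-08). With shControl the genotype difference was 0.06 (95% interval 0.01 to 0.11, adjusted p = 0.0678), which was called without TET2 WT shControl replicate 1 (0.08, adjusted p = 0.0303, and 0.000329 to 0.363 over all alternatives) and was called in the other direction under scaling to total gene counts (-0.12, adjusted p = 0.000329). In TET2 WT the change with shMBD6 was -0.12 (adjusted p = 0.00033).

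OSM, the cytokine oncostatin M, is at chr22:30262829-30266851 on the minus strand and was barely detected. It had 15, 49 and 15 counts with shControl and 19, 23 and 36 with shMBD6 in TET2 WT, and 1, 4 and 0 with shControl and 10, 1 and 5 as labelled shMBD6 in TET2 KO. A count of 0 allows up to 3 counts, which is 0.0395 CPM in that library, by counting error alone. The TET2 KO shControl libraries were all below the TET2 WT shControl libraries. Because OSM entered the fit through its TET2 WT libraries, its genotype differences are given as a description and no test is read from them. The fitted log2 change was -2.82 averaged over both labels, -3.38 with shControl and -2.25 among the groups labelled shMBD6. Leaving out 1 library at a time gave -3.70 to -2.49, -5.16 to -2.74 and -3.15 to -1.76 in the same order. Those ranges are not confidence intervals. These fitted values depend on the small count that the model adds. OSM was at 0.0685 CPM per kb of span in TET2 WT shControl and 0.0923 in TET2 WT shMBD6. There 95% of olfactory receptor genes were below 0.0559 and 0.0830, but their means were 0.0809 and 0.0918. In TET2 KO, OSM was at 0.00676 with shControl and 0.0192 as labelled shMBD6, where 95% of olfactory receptor genes were below 0.0754 and 0.0513.

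**Figure D3:**
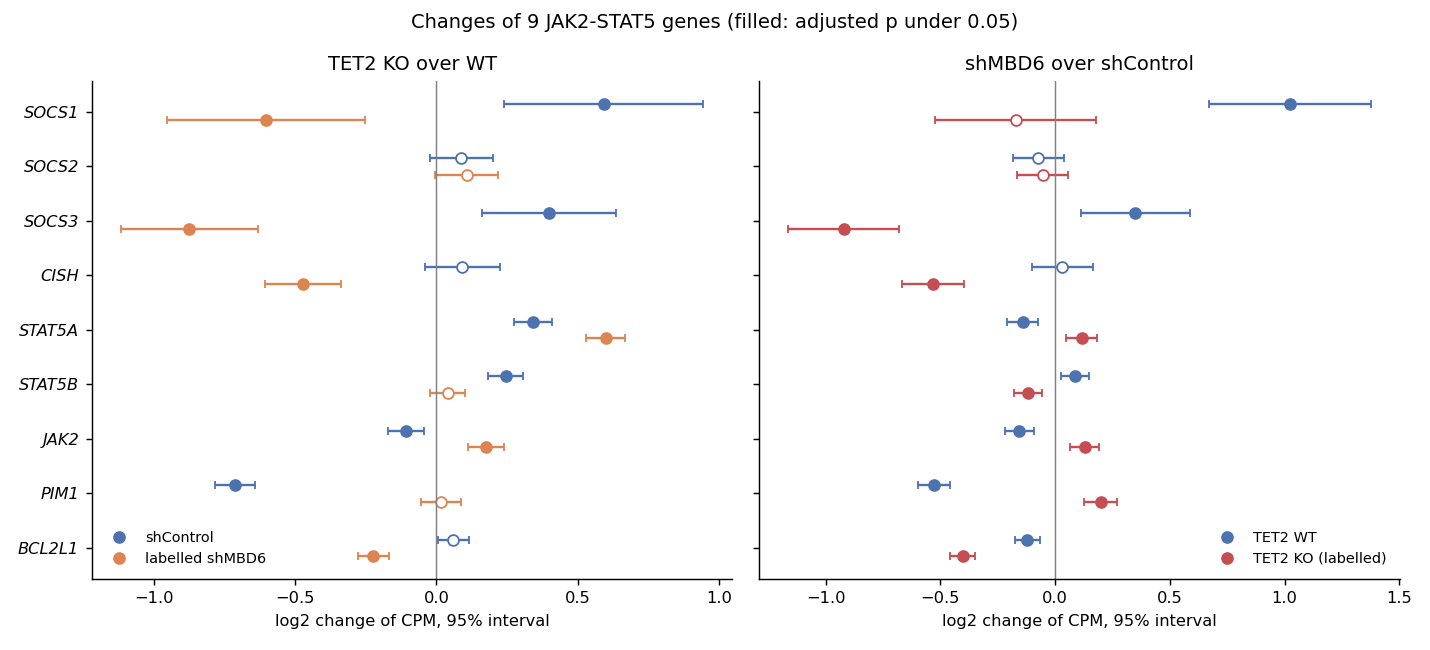
Log2 change of CPM (x axes) with its 95% interval for 9 members (rows), in TET2 KO over TET2 WT by shRNA label (left) and in shMBD6 over shControl by genotype (right). Filled points had an adjusted p under 0.05 and OSM is left out because its intervals are several units wide. SOCS1 and SOCS3 lie on opposite sides of 0 for the 2 shRNA labels on the left, PIM1 lies on opposite sides of 0 for the genotypes on the right, and STAT5B as labelled in TET2 KO changed sign under scaling to total gene counts.

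Set side by side, the shMBD6 effects in TET2 WT and, as labelled, in TET2 KO had opposite signs and were both called for SOCS3 (0.35 and -0.92), STAT5A (-0.14 and 0.12), STAT5B (0.09 and -0.12), JAK2 (-0.16 and 0.13) and PIM1 (-0.53 and 0.20). For BCL2L1 both were lower (-0.12 and -0.40). The share of all genes called in opposite directions was not counted. In TET2 WT the SOCS3 call was lost without either of 2 libraries and the STAT5B call without any of 4. The STAT5B value in TET2 KO was 0.01 with total gene counts. Of the members called in opposite directions, only PIM1 kept both calls under every alternative. The small negative values in TET2 WT depended on scaling. With the size factors of DESeq2 the median log2 change of all genes in that comparison moved from 0.10 to 0.21, and STAT5A, JAK2 and BCL2L1 were at -0.03, -0.05 and -0.01 and no longer called, while SOCS1, SOCS3, STAT5B and PIM1 were. The members called then numbered 4.

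Across the 12 libraries the inhibitors did not form 1 pattern. The Pearson correlation of log2 CPM was 0.894 between SOCS3 and CISH, 0.893 between CISH and BCL2L1 and 0.796 between SOCS3 and BCL2L1, but 0.221 between SOCS1 and CISH and -0.005 between SOCS1 and SOCS2. STAT5A and STAT5B were at 0.591. These values describe 12 libraries that fall into 4 groups and carry no test. By the same measure over 14964 genes, the genes most like STAT5A were RBBP5 (0.994), IQGAP1 (0.993) and EPB41L1 (0.992), and those most like PIM1 were EXOC3L4 (0.993), TSSC2 (0.990) and LINC02934 (0.989). Most like SOCS3 were MICALL2 (0.978), CBFA2T3 (0.968) and RAP2C-AS1 (0.966), and CBFA2T3 also followed for CISH (0.943) after KCNK5 (0.960) and NFIC (0.950). BCL2L1 was nearest to MIR4435-2HG (0.975), EPS15L1 (0.972) and OGDH (0.969), JAK2 to SET (0.968), TRMT61B (0.966) and SLC49A4 (0.966), and STAT5B to the promoter-divergent transcripts EPM2A-DT (0.978), ANKRD17-DT (0.973) and DPH6-DT (0.972). SOCS1 (BET1L, DLK1 and FLT1, 0.905 to 0.908), SOCS2 (RNF44, STK32C and TMED2-DT, 0.851 to 0.878) and OSM (SLC46A3, RGS9 and MYT1L, 0.887 to 0.912) had no neighbour as close.

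Of 63 other genes of the JAK-STAT pathway, 60 could be tested. In TET2 KO over TET2 WT with shControl 43 were called (20 higher, 23 lower), which is 71.7% beside 45.8% of all genes, and their median log2 change was -0.05, the same as that of all genes. With the mean of both labels it was 41 (23 higher, 18 lower), or 68.3% beside 52.7%, and among the groups labelled shMBD6 it was 45 (25 higher, 20 lower), or 75% beside 58.6%. With shMBD6 in TET2 WT 39 were called (17 higher, 22 lower), or 65% beside 42.5%, and as labelled in TET2 KO 31 (11 higher, 20 lower), or 51.7% beside 36.4%. The interaction was called for 40 (18 higher, 22 lower), or 66.7% beside 49.4%. No test compares these shares, and nothing particular to the pathway is read from them.

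The receptors had the median change largest in size of the 6 roles in each of the 6 comparisons. Of 15 tested, 9 were higher and 2 lower with shMBD6 in TET2 WT (median log2 change 1.02), where 42.5% of all genes were called. In TET2 KO with shControl 7 were higher and 3 lower (median 0.32, beside 45.8% of all genes called), and as labelled shMBD6 in TET2 KO 2 were higher and 7 lower (median -0.50, beside 36.4%). The receptor medians were -0.12 for the averaged genotype comparison, -0.34 among the groups labelled shMBD6 and -1.39 for the interaction. Without a filter on low counts, the median log2 change of all genes with shMBD6 in TET2 WT was 0.40, beside 0.10 with it. How far this enters the rises of pathway genes with few counts in that comparison was not tested. KIT, the stem cell factor receptor, was at 0.827 ± 0.410 CPM (SD, n = 3) with shControl and 2.79 ± 0.0220 with shMBD6 in TET2 WT, and at 28.4 ± 0.698 with shControl and 19.3 ± 1.13 as labelled shMBD6 in TET2 KO. IL6R, the interleukin-6 receptor, was at 0.924 ± 0.144, 2.22 ± 0.305, 2.11 ± 0.408 and 0.677 ± 0.119 CPM in the same order. IL7R, the interleukin-7 receptor, was at most 0.558 CPM in the group means. The receptors for oncostatin M itself, OSMR and LIFR, named here after their values were seen, rose by 1.31 and 1.52 on the log2 scale with shMBD6 in TET2 WT and by 2.04 and 1.94 in TET2 KO with shControl. Both fell as labelled shMBD6 in TET2 KO, OSMR by 0.91 (adjusted p = 3.24e-07) and LIFR by 0.50 (adjusted p = 0.00274) on the log2 scale. Among the groups labelled shMBD6 the genotype differences were -0.18 for OSMR (adjusted p = 0.21) and -0.08 for LIFR (adjusted p = 0.633). EPOR, the erythropoietin receptor, went the other way and was likewise named afterwards. Its log2 change was -0.63 with shMBD6 in TET2 WT (adjusted p = 1.46e-06). EPOR was also lower in TET2 KO with shControl (-1.05, adjusted p = 4.83e-11), as were the receptor genes PRLR (-1.12) and IFNAR1 (-0.28). IFNAR1 fell with shMBD6 in TET2 WT too (-0.39), where PRLR rose (1.39). As labelled shMBD6 in TET2 KO, EPOR was higher (0.36, adjusted p = 0.00388).

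Among 15 inhibitors tested outside the members, PTPRC, which encodes the phosphatase CD45, was at 94.6 ± 2.60 CPM (SD, n = 3) in TET2 WT shControl and 71.5 ± 4.54 in TET2 WT shMBD6, but at 0.0927 ± 0.0355 and 0.133 ± 0.108 in the TET2 KO groups. The ubiquitin ligase gene CBLB was at 130 ± 7.93 and 134 ± 5.44 CPM in the TET2 WT groups and at 42.4 ± 2.48 and 28.0 ± 2.73 in the TET2 KO groups. PIAS1, a SUMO ligase, went the other way, from 162 ± 5.00 and 169 ± 8.23 CPM to 370.1 ± 5.27 and 263 ± 2.48. With shControl 5 of the 15 inhibitors were higher and 6 lower in TET2 KO, where 45.8% of all genes were called.

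Of 13 other targets tested, 4 were higher and 7 lower in TET2 KO with shControl, and 3 were higher and 6 lower with shMBD6 in TET2 WT, beside 45.8% and 42.5% of all genes called. BCL6, a transcriptional repressor, was at 58.8 ± 2.29 and 60.8 ± 1.60 CPM (SD, n = 3) in the TET2 WT groups and at 28.3 ± 0.921 and 22.8 ± 1.53 in the TET2 KO groups. ID1, an inhibitor of helix-loop-helix factors, was at 12.9 ± 2.98 CPM in TET2 WT shControl and at 5.25 ± 0.672, 3.79 ± 0.691 and 3.41 ± 1.88 in the other groups, with TET2 WT shControl highest as for PIM1. The phosphatase gene DUSP5 was lowest in TET2 WT shControl, at 2.86 ± 0.529 CPM beside 6.33 ± 0.742, 7.34 ± 1.47 and 6.09 ± 0.952. LIF was below 0.36 CPM in every group mean. Of the 6 other kinases JAK3 was highest in TET2 WT shMBD6, at 0.950 ± 0.223 CPM, and of the 5 other STAT genes the one that passed 2-fold in a comparison, STAT4, reached 1.03 CPM at most in the group means. In the 6 adaptor genes no change passed 2-fold.

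**Figure D4:**
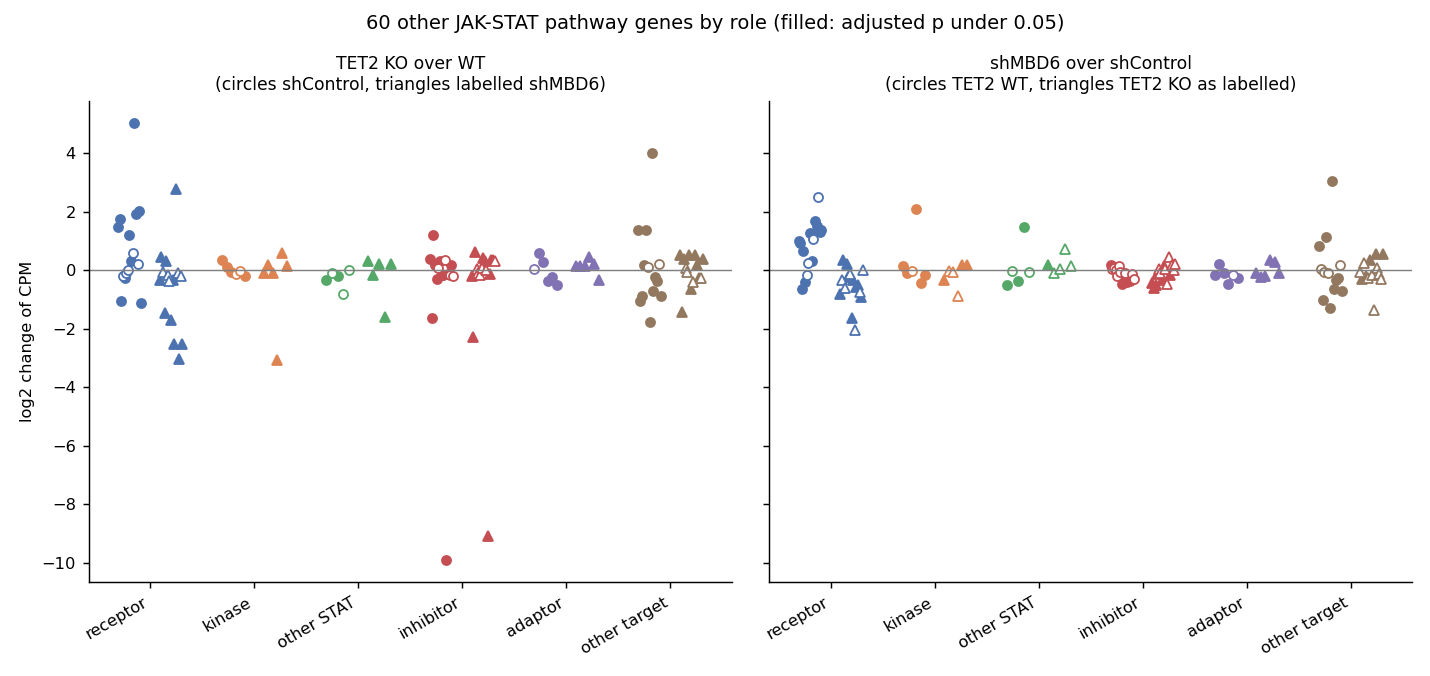
Log2 change of CPM (y axes) of the 60 other JAK-STAT genes tested, by role (x axes), for TET2 KO over TET2 WT (left, circles shControl and triangles labelled shMBD6) and shMBD6 over shControl (right, circles TET2 WT and triangles TET2 KO as labelled). Filled symbols had an adjusted p under 0.05. The receptor circles lie mostly above 0 and the receptor triangles mostly below, and the lowest points on the left are PTPRC.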

How the data were processed

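Chromatin-associated RNA was sequenced from 12 K562 libraries, 3 in each of 4 groups, with a stranded total-RNA kit. The authors deposited raw read counts per gene on hg38, which end in HTSeq summary lines (the methods name HTSeq 0.12.4 for annotated genes and featureCounts for caRNAs), after trimming with Trimmomatic 0.39 and alignment with HISAT2 2.2.1. The strand setting and counted feature are not given in the sources used here. Lines naming no gene (28.4 to 31.5% of records) were left out, and 7 mouse libraries were not used. Symbols and lengths came from GENCODE release 44, which matched 99.12% of identifiers (58.9% with the same version), and promoter windows from RefSeq.

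Counts were fitted in R 4.3.3 with edgeR 4.0.16 (TMM, filterByExpr with its minimum count of 10, robust quasi-likelihood test, two-sided) on all 12 libraries, which shared 1 estimate of the spread, and checked on simulated data. The members and lists were chosen with earlier results of these data known. Named genes are the 10 members, TET2 and MBD6, up to 4 pathway genes a role called with a log2 change of at least 1 in size, and the 3 genes most like each member among those whose log2 CPM averaged 0 or more. Cell-type markers come from fixed lists. Alternatives were other size factors, filters, DESeq2 1.42.0, a replicate block, fits to the compared libraries alone and leaving out each library. Replicate pairs differed by more than sampling noise (chi-square per degree of freedom 5.26 to 14.1), so all counted separately.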

Additional observations from a re-analysis of the deposited data

Results flagged for a closer look

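For 8 of the 10 genes, beside 49.4% of all genes tested, the log2 effect of shMBD6 in TET2 KO, as labelled, differed from that in TET2 WT by the interaction term of the edgeR fit. The difference, TET2 KO minus TET2 WT, was -1.19 for SOCS1, -1.27 for SOCS3, -0.56 for CISH, -0.21 for STAT5B and -0.28 for BCL2L1. It was 0.26 for STAT5A, 0.29 for JAK2 and 0.73 for PIM1. For SOCS2 it was 0.02 (adjusted p = 0.862) and for OSM 1.14 (adjusted p = 0.569). The same term for MBD6 was 0.75, as MBD6 fell with shMBD6 in TET2 WT and did not pass the test in TET2 KO, where its value was above that in shControl. Whether the labels of the TET2 KO libraries are right was not tested.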

How the results depend on the processing

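Every value is a share of its library and each group has 3 libraries, so small changes depend on how libraries are set to a common scale. Leaving OSM aside, of 764 alternative values of 41 called results 721 kept direction and call, 40 kept only the direction and 3 reversed without a call. Of 244 alternative values of 13 results not called, 190 kept direction and stayed uncalled, 8 were called in the same direction, 10 reversed and were called, and 36 reversed without a call. The cause of these shifts was not tested. The members called for shMBD6 in TET2 WT, 7 in the fit reported, numbered 4 with the size factors of DESeq2, with total gene counts and with DESeq2, and no other count of members moved by over 1.5 times.

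Reversed log2 changes were as follows, and those that were called in their new direction were JAK2 with total gene counts in the averaged difference, BCL2L1 with total gene counts in shControl, and STAT5B and PIM1 among the groups labelled shMBD6 under the first 4 settings given. For TET2 KO over TET2 WT averaged over both labels, JAK2 was -0.037 with the size factors of DESeq2, -0.129 with total gene counts, -0.036 with the stricter filter (CPM of at least 1 in 3 libraries) and -0.037 with DESeq2, and with total gene counts SOCS2 was -0.066 and STAT5B -0.021. With shControl, total gene counts gave -0.090 for SOCS2, -0.087 for CISH and -0.118 for BCL2L1. Among the groups labelled shMBD6, SOCS2 was -0.013 with the size factors of DESeq2, -0.042 with total gene counts, -0.0015 with the stricter filter and -0.013 with DESeq2. There STAT5B was -0.081, -0.109, -0.069 and -0.081 in the same order, -0.019 without a filter and -0.031 with only the libraries compared, and PIM1 was -0.105, -0.134, -0.093 and -0.105, -0.043 without a filter and -0.055 with only the libraries compared. For shMBD6 in TET2 WT, SOCS2 was 0.036, 0.024, 0.0084 and 0.036 in that order and 0.031 without a filter. For labelled shMBD6 in TET2 KO, total gene counts gave 0.072 for SOCS2 and 0.0070 for STAT5B. The interaction of SOCS2 was -0.079 with the size factors of DESeq2, -0.036 without a filter, -0.056 with the stricter filter and -0.079 with DESeq2.

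Leaving out 1 library at a time gave -0.067 to 0.085 for SOCS1 in the averaged genotype difference, -0.020 to 0.041 for PIM1 among the groups labelled shMBD6, -0.030 to 0.10 for CISH with shMBD6 in TET2 WT and -0.043 to 0.074 for the interaction of SOCS2. Same-numbered replicates deviated together only weakly (correlations of -0.047 to 0.304 over 9704 genes, not all above 0.1), so the numbers were not taken as pairs. With a replicate block BCL2L1 was called in TET2 KO with shControl (log2 change 0.06, adjusted p = 0.0231), and no other member call changed. OSM could not be tested under the stricter filter.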
